A study of Mus musculus with 58 samples.

Results

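The Wnt ligands, their Frizzled receptors and the main modulators of the pathway were examined in 2 brain regions of aged *APOE* mice, the entorhinal cortex (EC) and the visual cortex (primary, PVC). The members were found by gene symbol: every gene named Wnt or Fzd with a number, Dvl1 to Dvl3, Sfrp1 to Sfrp5, Dkk1 to Dkk4, and Lrp5, Lrp6, Ctnnb1, Axin1, Axin2, Apc, Lef1 and Tcf7l2. This gave 47 of the 31246 genes listed for each region. They were 19 Wnt ligands, 9 Frizzled receptors, 2 co-receptors, 3 Dishevelled genes, 4 secreted Frizzled-related proteins, 4 Dickkopfs, 4 genes of the destruction complex and beta-catenin, and 2 nuclear factors. Symbols were matched as listed, so Sfrp3 under its other name Frzb was counted among the other pathway genes. The mice were males aged 14 to 15 months of the C57Bl/6 strain, 10 of genotype *APOE3/3* and 19 of genotype *APOE3/4* in each region. All of them carried human *APOE* in place of the mouse gene, driven by the mouse promoter. Mice of the whole study came from more than 1 colony, and the colony of each sequenced mouse is not given. Poly(A)+ RNA of each dissected region was sequenced, which gave 58 libraries, and the same 29 mouse numbers label the libraries of both regions. The EC was studied as a region vulnerable to Alzheimer's disease and the PVC as a resistant one, and the question asked here is how the Wnt genes differ in level between them.

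The value used for each gene and region was the authors' mean normalized count, which pools both genotypes, so the genotypes were not compared and no value of a single mouse was used. No spread between mice goes with these values, so the differences between the regions have no replicate check, and no test or interval is given. Each region was divided by its own sum of mean normalized counts to give CPM, the counts scaled to a table sum of 1000000. A level is given as CPM when 1 gene is compared between the regions, and as CPM per kb of exon when genes are compared with each other. A gene passed a 2-fold limit where the log2 ratio of EC over PVC, with 0.1 CPM added to both, was 1 or more in size. The limit was applied to genes whose mean normalized count averaged at least 10 over the regions. In tissue pieces such as these, fewer cells of a type and less RNA per cell cannot be told apart.

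Wnt proteins are secreted, lipid-modified ligands that bind Frizzled receptors together with the co-receptors Lrp5 or Lrp6. Dishevelled relays the signal and stops a destruction complex, which holds Apc and Axin, from degrading beta-catenin. Beta-catenin then enters the nucleus and acts with factors such as Lef1 and Tcf7l2, while secreted Frizzled-related proteins bind Wnts and several Dickkopfs block the co-receptors. In the brain the pathway is known for roles in patterning, in synapse formation and in the growth and barrier properties of blood vessels.

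Of the 47 members, 41 passed the minimum, and 7 of these, or 17.1%, passed the 2-fold limit between the regions, against 5.33% of all 16456 genes. Wnt7b, Wnt6 and Fzd8 had a higher level in the EC, and 3.44% of all genes passed the limit in that direction. Wnt3, Wnt10a, Wnt9b and Dkk3 had a higher level in the PVC, where 1.89% of all genes passed the limit. The background was also taken in bands of the mean normalized count, since it was larger among genes with few counts. Between 10 and 100 counts 3 of 12 members passed the limit, against 10.9% of genes. Between 100 and 1000 counts 2 of 18 did, against 6.06%, and at 1000 counts or more 2 of 11 did, against 1.89%. The median log2 ratio was 0.22 over the 41 members and 0.03 over all genes. The EC level was above the PVC level for 25 of the 41 members and below it for 16, and 56.4% of all genes were higher in the EC. No member changed its direction when the regions were put on 1 scale by a median ratio or an upper quartile. The remaining 6 members, Wnt3a, Wnt8a, Wnt8b, Wnt11, Dkk1 and Dkk4, fell under the minimum. Their mean normalized counts ran from 0.284 for Dkk4 in the PVC to 12.5 for Wnt11 in the EC, and 0 members were listed at 0.

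**Figure D1:**
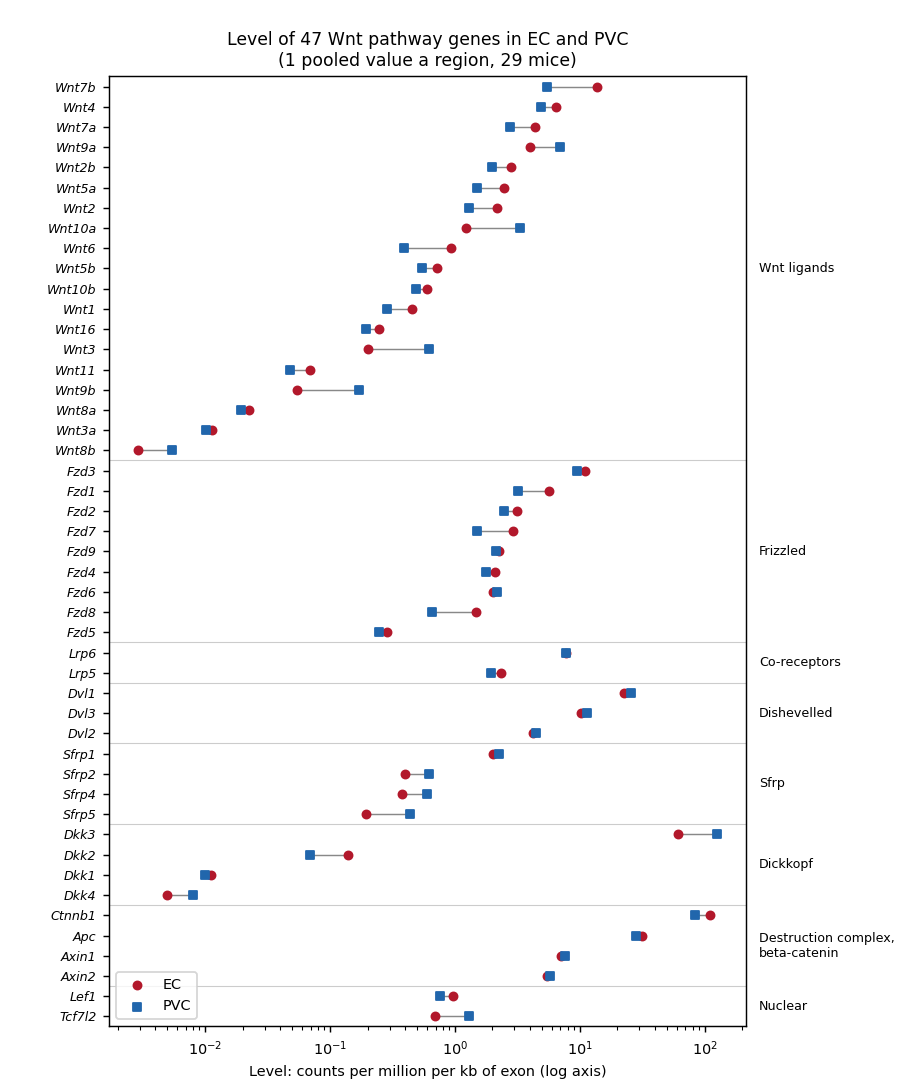
Level of each of the 47 genes in CPM per kb of exon (log axis), as 1 pooled value for the EC (red circles) and 1 for the PVC (blue squares), grouped by role and sorted by EC level within a role. Ctnnb1 and Dkk3 had the highest levels per kb in both regions, which for Dkk3 depends on the division by length. Wnt7b and Wnt10a lie far apart between the regions in opposite directions.

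The ligands held 5 of the 7 genes past the limit. Wnt7b, a ligand made by neurons that acts on dendrites and on blood vessels, had mean normalized counts of 2982 (EC) and 657 (PVC). This was a level of 60.4 CPM in the EC and 24.3 CPM in the PVC, 2.48-fold higher in the EC (log2 ratio 1.31), and ranked 301 from the top among the 16456 genes. Its close relative Wnt7a, with the same known role at blood vessels, had 14.0 CPM in the EC and 8.70 CPM in the PVC, a log2 ratio of 0.68. Wnt6 had mean normalized counts of 94.8 (EC) and 22.1 (PVC), or 1.92 and 0.816 CPM, 2.21-fold higher in the EC. Both counts of Wnt6 are low, and with a pseudocount of 0.5 CPM its log2 ratio was 0.88. All 7 meningeal fibroblast markers also had the higher level in the EC, where they summed to 276 CPM against 100.3 CPM in the PVC, with 0 of them at 0 and 5 past the limit. The 6 dentate gyrus and hippocampus markers summed to 356 CPM in the EC and 168 CPM in the PVC. Of these, 3 passed the limit with the EC higher, and 1 was higher in the PVC. The part of either tissue in the values of Wnt7b, Wnt6 and the other members higher in the EC was not tested.

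Wnt3 and Wnt10a, ligands known mainly for signaling through beta-catenin, went the other way. Wnt10a had mean normalized counts of 149 (EC) and 221 (PVC), or 3.01 and 8.18 CPM, 2.66-fold higher in the PVC (log2 ratio −1.41). Wnt3 had 30.4 counts in the EC and 51.5 in the PVC, or 0.615 and 1.90 CPM, and was 2.80-fold higher in the PVC (log2 ratio −1.49). Wnt9b had only 12.2 counts in the EC and 20.9 in the PVC, or 0.246 and 0.771 CPM, and was 2.51-fold higher in the PVC, below 2-fold with a pseudocount of 0.5 CPM. Wnt10a, Wnt3 and Wnt9b also had the larger unscaled count in the PVC, although that table had the smaller sum. Wnt9a, whose log2 ratio was −0.79, stayed inside the limit at 3.98 CPM per kb in the EC and 6.91 CPM per kb in the PVC.

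The other 9 ligands above the minimum and inside the limit all had log2 ratios above 0. These ran from 0.28 for Wnt10b to 0.74 for Wnt2 and included Wnt5a, a ligand known for signaling without beta-catenin, at 0.73. Wnt4 was the second most abundant ligand per kb in the EC, with 6.43 CPM per kb, and had 4.85 CPM per kb in the PVC. In each of these 9 genes the difference was below 2-fold, and with no spread between mice it cannot be said whether it exceeds that spread.

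**Figure D2:**
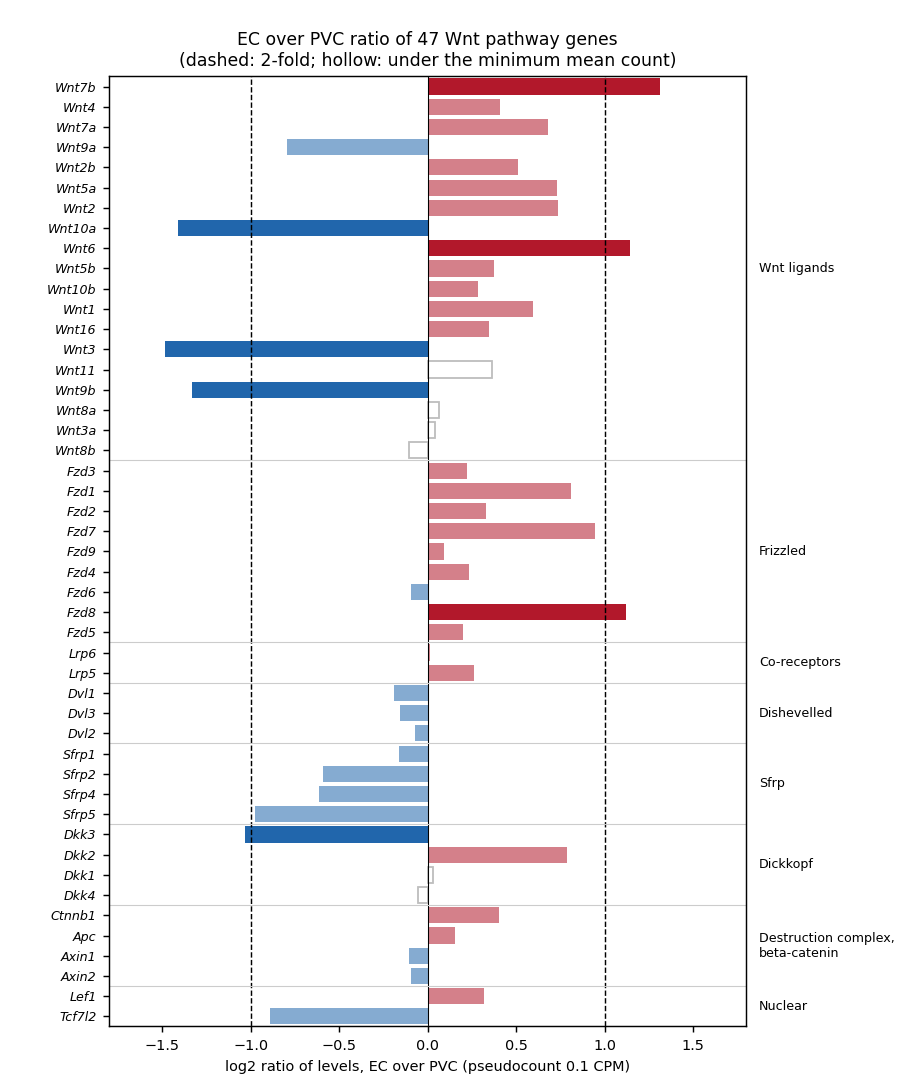
Log2 ratio of levels, EC over PVC, for each of the 47 genes, with bars to the right for a higher level in the EC and to the left for a higher level in the PVC. Dark bars pass the 2-fold limit (dashed lines), light bars do not, and hollow bars are genes under the minimum mean count. Wnt7b reached 1.31 and Wnt3 reached −1.49.

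The make-up of the ligand family within a region does not depend on how the regions were scaled. Wnt7b made up 33.7% of the summed ligand level per kb in the EC and 17.8% in the PVC. Wnt9a, at 9.81% in the EC, was the largest share in the PVC with 22.4%, and Wnt10a had 3.01% in the EC and 10.7% in the PVC. Wnt4 kept 15.9% and 15.7%. The mean normalized count of Wnt7b was 4.56 times that of Wnt9a in the EC and 1.06 times in the PVC, so the leading ligand of the PVC depends on the correction for length. Per kb, Wnt7b was at 3.44 times Wnt9a in the EC and 0.796 times in the PVC.

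**Figure D3:**
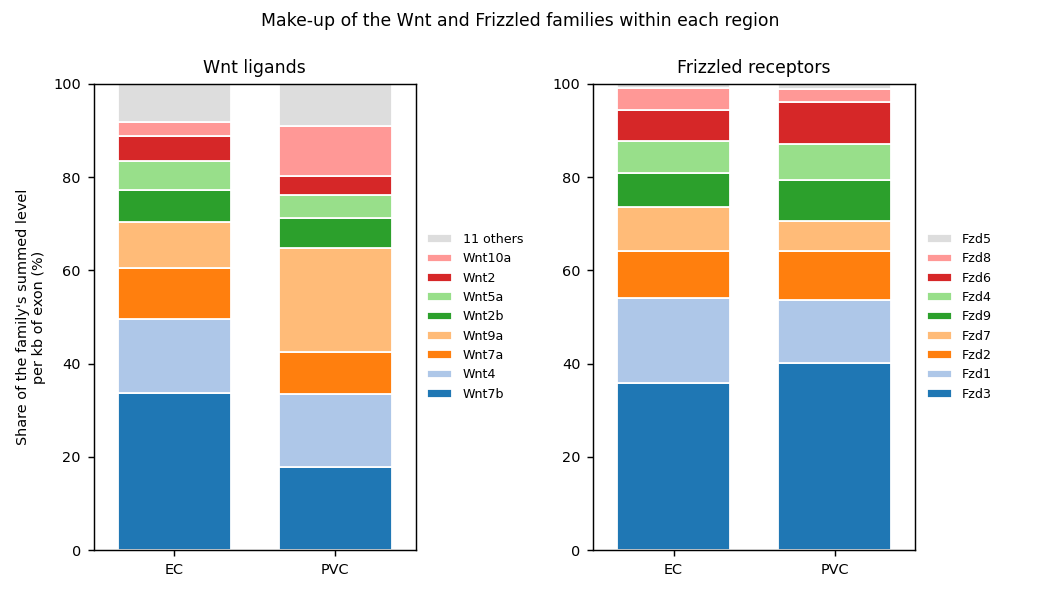
Share of each gene in the summed level per kb of exon of the Wnt ligands (left) and the Frizzled receptors (right), in percent, with 1 stacked bar for each region and the smallest shares in grey. Wnt7b takes 33.7% of the ligand bar in the EC and 17.8% in the PVC, and Fzd3 leads the receptor bar in both regions.

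Several ligand genes lie side by side in the mouse genome, and their ratios were set beside each other. With a limit of 50 kb between genes, 4 pairs were found in the NCBIM37 annotation, whose coordinates are used here. Wnt6, on chromosome 1 from 74818466 to 74831893, lies 6.20 kb before Wnt10a, which runs from 74838090 to 74850753 on the same strand. This pair took opposite directions, with log2 ratios of 1.14 and −1.41, and the mean normalized count of Wnt6 was 0.637 times that of Wnt10a in the EC and 0.0997 times in the PVC. Wnt9b, on chromosome 11 from 103588678 to 103611135, and Wnt3, from 103635464 to 103679271, are 24.3 kb apart on opposite strands, and both had the higher level in the PVC. Wnt10b and Wnt1 on chromosome 15, 11.7 kb apart, had log2 ratios of 0.28 and 0.60, both inside the limit. In the pair of Wnt3a and Wnt9a, 16.2 kb apart on chromosome 11, Wnt3a was under the minimum. The exons of Wnt6, Wnt10a, Wnt3 and Wnt9b share 0 bases with exons of other genes in this annotation. It differs from the gene model used for counting, which the study's methods describe as limited to protein-coding genes. How reads were assigned to neighbours was not tested. Wnt7b on chromosome 15, from 85365869 to 85412251, shares 38 exon bases with another gene.

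The stretches just upstream of Wnt6, Wnt9b and Wnt3 are shown because these neighbouring ligand genes passed the limit. Each is the 250 bases before the annotated start, from RefSeq on the GRCm38.p6 build, whose coordinates differ from those above. The sequence of Wnt6 is from chr1:74771642-74771891 on the plus strand, that of Wnt9b from chr11:103749822-103750071 on the minus strand, and that of Wnt3 from chr11:103773925-103774174 on the plus strand. Capitals would mark a TCF/LEF core motif, searched as CTTTGAA or CTTTGAT on both strands. None of the 3 sequences holds these letters.
Wnt6: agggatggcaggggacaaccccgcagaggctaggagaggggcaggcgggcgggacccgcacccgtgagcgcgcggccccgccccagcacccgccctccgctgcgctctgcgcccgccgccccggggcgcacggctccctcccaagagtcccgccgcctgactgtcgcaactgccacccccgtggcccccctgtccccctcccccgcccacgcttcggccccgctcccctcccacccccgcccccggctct
Wnt9b: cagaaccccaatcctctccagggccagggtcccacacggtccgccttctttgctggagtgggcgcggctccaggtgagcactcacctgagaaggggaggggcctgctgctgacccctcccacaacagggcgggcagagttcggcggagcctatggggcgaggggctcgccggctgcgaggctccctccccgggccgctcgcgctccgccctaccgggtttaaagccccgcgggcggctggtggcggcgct
Wnt3: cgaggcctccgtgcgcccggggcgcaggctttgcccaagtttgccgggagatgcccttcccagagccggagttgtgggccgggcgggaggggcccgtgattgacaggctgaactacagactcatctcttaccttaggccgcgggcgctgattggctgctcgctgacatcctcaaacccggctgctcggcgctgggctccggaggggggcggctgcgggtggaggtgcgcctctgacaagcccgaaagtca

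These sequences are rich in G and C, with 79.6% for Wnt6, 72.0% for Wnt9b and 68.0% for Wnt3. The median over the 39 upstream sequences of members was 68.0%, against 52.4% over all 32851. No upstream sequence was available for Apc, Axin1, Dkk3, Dkk4, Fzd2, Fzd3, Fzd6, Fzd8, Lrp5, Lrp6, Sfrp1, Sfrp4, Wnt5a, Wnt7b, Wnt8a and Wnt10a. Sequences were available for the other 31 of the 47 members. The motif was present upstream of 3 of these 31, Wnt5b, Wnt11 and Dkk1, or 9.68%, against 8.63% of all 27025 genes. A match is a run of letters only. Wnt11 and Dkk1 were under the minimum, so the limit was not applied to them, and 4 of the 7 genes past the limit had no upstream sequence available.

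Among the receptors, Fzd8 passed the limit. It had mean normalized counts of 242 (EC) and 59.5 (PVC), or 4.90 and 2.20 CPM, 2.18-fold higher in the EC. Fzd7, at 13.9 CPM in the EC and 7.18 CPM in the PVC, had a log2 ratio of 0.95, just inside the limit, and Fzd1, at 24.7 and 14.0 CPM, had 0.81. Fzd3, a receptor known for axon guidance, had the highest level of the family per kb in both regions, with 11.0 CPM per kb in the EC and 9.47 CPM per kb in the PVC. It made up 35.8% of the summed receptor level in the EC, and the PVC share was 40.1%. Fzd1 came next, followed by Fzd2 with 3.11 and 2.47 CPM per kb. The other receptors had log2 ratios from −0.10 for Fzd6 to 0.33 for Fzd2, with Fzd5 the lowest in level at 0.287 and 0.248 CPM per kb. In all, 8 of the 9 receptors had the higher level in the EC, with a median log2 ratio of 0.23.

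Of the 9 genes from the co-receptors to the destruction complex, 0 passed the limit. The share was 5.33% over all genes and 1.89% over genes with 1000 counts or more, so 0 of 9 is near both. The co-receptor Lrp6 had 76.4 CPM in the EC and 75.7 CPM in the PVC, a log2 ratio of 0.01. Lrp5 had 12.1 and 10.0 CPM, a log2 ratio of 0.26. The Dishevelled genes Dvl1, Dvl3 and Dvl2 had log2 ratios of −0.19, −0.16 and −0.07, and Dvl1 had the highest level per kb of them in both regions, 22.6 and 25.9 CPM per kb. Dvl3 had 10.2 and 11.4 CPM per kb and Dvl2 4.25 and 4.47 CPM per kb. Dvl2 shares 19.7% of its exon bases with other annotated genes, and the library kit kept no strand, so its value is less certain.

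Ctnnb1, which encodes beta-catenin, had the highest level of the 47 members per kb in the EC, with 111 CPM per kb, and 83.7 CPM per kb in the PVC. Its log2 ratio was 0.40. Apc, the scaffold of the destruction complex, had 31.3 CPM per kb in the EC and 28.2 CPM per kb in the PVC, a log2 ratio of 0.15. Axin1, at 7.10 and 7.65 CPM per kb, and Axin2 had log2 ratios of −0.11 and −0.10. Axin2 is also a widely used target gene of beta-catenin signaling, and its level was 29.8 CPM in the EC and 31.9 CPM in the PVC.

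The nuclear factors changed places. Lef1 had 8.30 CPM in the EC and 6.63 CPM in the PVC, and Tcf7l2 had 6.04 CPM in the EC and 11.3 CPM in the PVC. Their log2 ratios were 0.32 and −0.89, neither past the limit. Per kb, Lef1 was the higher of the pair in the EC, with 0.959 against 0.691 CPM per kb, and Tcf7l2 in the PVC, with 1.29 against 0.766 CPM per kb. Tcf7l2 is known in oligodendrocytes as well as in the thalamus. All 6 oligodendrocyte markers had the higher level in the PVC, with a summed level of 918 CPM in the EC and 2331 CPM in the PVC and 0 of them at 0. Their part in the values of Tcf7l2 and of the other members higher in the PVC was not tested.

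Of the 6 Sfrp and Dickkopf members above the minimum, Dkk2 alone had the higher level in the EC. The list of other secreted inhibitors leaned the other way, with 5 of its 6 genes above the minimum higher in the EC and a median log2 ratio of 0.32. Dkk3, the divergent member of the Dickkopf family and a gene of high expression in cortical neurons, had mean normalized counts of 10183 (EC) and 11424 (PVC). This was 206 CPM in the EC and 422 CPM in the PVC, a level 2.05-fold higher in the PVC (log2 ratio −1.03). Dkk3 passed the limit by little and fell just inside it, at −0.97, with scaling by the upper quartile. Dkk3 was the highest of the 47 members per kb in the PVC, with 126 CPM per kb. Without division by length, Apc at 444 CPM and Ctnnb1 at 427 CPM were above it in the PVC. Dkk3 made up over 99.7% of the summed Dickkopf level per kb in both regions. Dkk1, the inhibitor best known in the brain, had mean normalized counts of 1.33 and 0.659, and Dkk2 had 25.5 and 6.93.

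The 4 genes listed as Sfrp were below the EC to PVC ratio of 1, with log2 ratios of −0.16 for Sfrp1, −0.59 for Sfrp2, −0.61 for Sfrp4 and −0.98 for Sfrp5. Sfrp1 had the highest level per kb, 2.03 in the EC and 2.27 CPM per kb in the PVC. Sfrp5, with mean normalized counts of 18.3 and 22.3, lay just inside the limit and passed it with a smaller pseudocount. Frzb, the remaining secreted Frizzled-related protein, went the other way, with mean normalized counts of 690.1 (EC) and 310 (PVC), 14.0 and 11.5 CPM, and a log2 ratio of 0.28. Sfrp2 shares 16.1% of its exon bases with other annotated genes.

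The other genes of the pathway were looked up from lists fixed by name, and 68 of 69 had a value, of which 64 passed the minimum. Of these, 7 or 10.9% passed the limit, against 5.33% of all genes. The level was higher in the EC for 5 of them and in the PVC for 2, against 3.44% and 1.89% of all genes, and the 64 genes' median log2 ratio was 0.15. The R-spondins, secreted proteins that strengthen Wnt signals, took both directions. Rspo1 had 0.589 CPM in the EC and 14.2 CPM in the PVC, 20.7-fold higher in the PVC. Its mean normalized count in the EC was only 29.1. Rspo2 had 55.5 CPM in the EC and 15.5 CPM in the PVC, 3.56-fold higher in the EC, and Rspo3 had a log2 ratio of 0.52. Within a region, the mean normalized count of Rspo2 was 94.2 times that of Rspo1 in the EC and 1.09 times in the PVC.

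Gpc4, a heparan sulfate proteoglycan of the cell surface, had 42.3 CPM in the EC and 10.0 CPM in the PVC, 4.19-fold higher in the EC. Ror1, a receptor of the Wnt5a type of signal, had 2.24 and 0.687 CPM, 2.97-fold higher in the EC. Cd44, which is on the list of target genes but responds to many other signals, had 20.5 CPM in the EC and 3.58 CPM in the PVC, a log2 ratio of 2.49. It was the only one of the 11 listed targets above the minimum that passed the limit, and the median of the targets was 0.29. The inhibitor Sostdc1 was 2.03-fold higher in the EC, at 0.916 against 0.402 CPM, and Dkkl1, a relative of Dkk3, was 2.28-fold higher in the PVC, with mean normalized counts of 395 (EC) and 497 (PVC). The 14 genes of the destruction complex and its kinases and the 12 nuclear partners had median log2 ratios of 0.02 and 0.05. Neither list held a gene past the limit, which 5.33% of all genes passed, so lists of this size would hold few.

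**Figure D4:**
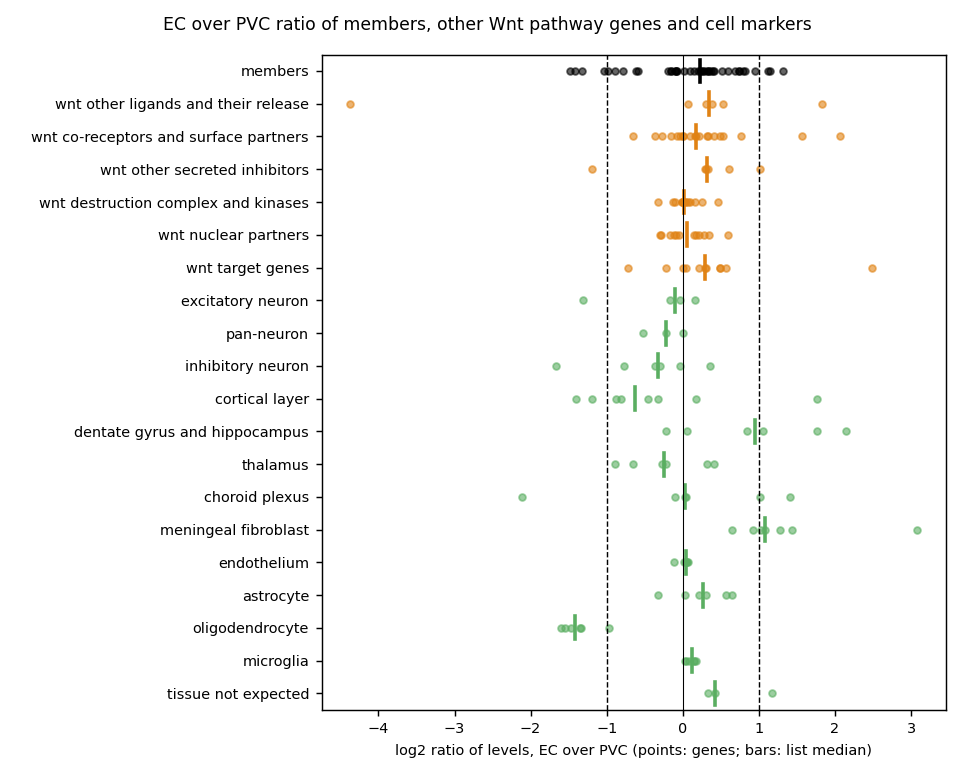
Log2 ratio of levels, EC over PVC, for the 41 members above the minimum (black), for lists of other Wnt pathway genes (orange) and for cell and tissue markers (green), with each point a gene and each vertical bar the list's median. Rspo1 lies farthest to the left, and the lists of oligodendrocyte and meningeal fibroblast markers lie apart from 0 in opposite directions.

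Markers were used to describe the tissue pieces. Neuronal genes were abundant in both regions, with summed levels of 4472 CPM in the EC and 5766 CPM in the PVC for 3 pan-neuronal genes. The 4 excitatory markers had a median log2 ratio of −0.11 and the 6 inhibitory ones −0.33. The meningeal fibroblast markers given above had a median log2 ratio of 1.08, and Dcn reached 3.08. The 6 dentate gyrus and hippocampus markers had a median log2 ratio of 0.95, with 356 CPM in the EC and 168 CPM in the PVC. The 8 cortical layer markers had a median of −0.63, although Reln was higher in the EC, with a log2 ratio of 1.76. Medians were 0.04 for 6 endothelial, 0.26 for 6 astrocyte and 0.12 for 6 microglial markers. None of these lists held a gene past the limit, against 5.33% of all genes. The thalamus list, which holds Lef1 and Tcf7l2, had a median of −0.25, and the choroid plexus list, which holds Sostdc1, had 0.03, with Ttr at −2.12 past the limit in one direction and Kcnj13 at 1.40 and Sostdc1 past it in the other. The 5 genes of tissues not meant to be present summed to 5.96 CPM in the EC and 4.18 CPM in the PVC. Most of this was Myh6, at 4.20 and 3.11 CPM, above Wnt6, Wnt3 and Wnt9b in both regions. Of the 3 above the minimum, Gabra6 alone passed the limit, at 0.658 CPM in the EC and 0.235 CPM in the PVC (log2 ratio 1.18).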

How the data were processed

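The data were 58 RNA-seq libraries, 1 from each region of 29 mice. Per the labels and methods, alignment to mm9 by the authors used TopHat2 (v2.0.6) and Bowtie2 (v2.0.2.0), reads were counted per gene with HTSeq on an NCBIM37 gene model, and DESeq2 (v1.10.1) was run in each region. The authors deposited 1 table of results for each region. The mean normalized count in it averages counts divided by size factors over a region's libraries, was computed by the authors, and was treated as a signal. The other 5 value columns hold the authors' own comparison of genotypes (log2 fold change, its standard error, test statistic and p-values) and were not used. The tables were normalized separately, depth per library was not analysed here, and the sums of the mean normalized counts were 49385488 (EC) and 27058393 (PVC), 1.83 times larger for the EC.

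With Python 3.11.15, numpy 2.4.6, pandas 2.3.3 and matplotlib 3.10.9, each table was scaled to 1000000 and log2 ratios were taken with a pseudocount of 0.1 CPM. Genes with an average mean normalized count of at least 10 were read against a 2-fold limit. Recovery of set ratios was tested on data simulated for both regions from the EC values, with counting noise only. That run checked the calculation and says nothing of the spread between mice. Exon lengths and coordinates came from the GENCODE annotation of NCBIM37 (Ensembl 65), which matched all 47 symbols. It differs from the gene model used for counting, which the study's methods describe as limited to protein-coding genes. Shared exon bases may therefore involve genes that were not counted. Gene lists were searched for RefSeq synonyms too. Named genes were those past the limit, the 3 highest and the lowest of each role, and list genes past the limit. Any other gene named, the pairs set against each other within a region, the bands of mean count and the upstream sequences shown were chosen after their values were seen. The members and lists were chosen with earlier results of these data known.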

Additional observations from a re-analysis of the deposited data

How the results depend on the processing

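The count of 7 members past the 2-fold limit, 3 higher in the EC and 4 in the PVC, depended on the limit and the minimum. With a 1.5-fold limit it was 19 (10 and 9), against 12.8% of all genes, and this included the 7. With a minimum of 100 counts it was 4 of 29 members (2 and 2), against 3.74% of 12808 genes, as Wnt3, Wnt6 and Wnt9b were no longer considered. With no minimum it was 7 of 47, against 3.13% of 31246 genes. Scaling by the median ratio of 12097 genes left the same 7 genes, against 5.29% of all genes. Scaling by the upper quartile also gave 7, against 5.47%, with Fzd7 at 1.01 in place of Dkk3 at −0.97. A pseudocount of 0.01 CPM gave 8, against 6.10%, adding Sfrp5 at −1.14. A pseudocount of 0.5 CPM gave 5, against 3.59%, without Wnt6 at 0.88 and Wnt9b at −0.77. Without the 8 members whose exons share bases with another gene, a choice made after seeing the data, it was 6, as Wnt7b was left out. The highest member of each of the 8 roles was the same without division by length in the EC, and for 6 of 8 roles in the PVC.

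No paired analysis was possible because each table holds 1 pooled value for a region, although the mouse numbers of the regions match. Leaving out single mice and the genotype comparison were not run, for the same reason. Depth per library is unknown here, so the ratios of genes with few counts, such as Wnt9b, Wnt3, Wnt6 and Sfrp5, have an unknown counting error.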
